A study of Homo sapiens with 6 samples.

Results

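The genes described here are ANLN, ECT2, RACGAP1, PRC1, CIT, CEP55, DIAPH3 and ARHGAP11A, 8 genes whose products build the cleavage furrow, the central spindle and the midbody when a cell divides. They were chosen by symbol, as 8 of the 23228 gene names in a table of normalized read counts, and all 8 were found there and passed the filter on low values. RNA sequencing had been performed on SaOS-2 cells, a human osteosarcoma line that lacks functional RB, carrying a tetracycline-inducible p21 vector. The comparison was between 3 libraries of untreated cells (p21 OFF) and 3 libraries of cells given 1 µg/ml doxycycline for 24 h (p21 ON), and it asked which genes respond when p21, an inhibitor of cyclin-dependent kinases encoded by CDKN1A, is switched on where RB is missing. Every library came from cells with the vector. Doxycycline was not given to cells without the vector in any library analysed here, so the drug and p21 cannot be told apart, and whether the line is 1 clone is not given in the sources used here.

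A cell that has separated its chromosomes must divide its cytoplasm. PRC1 bundles the antiparallel microtubules of the central spindle, and centralspindlin, a complex of RACGAP1 and the kinesin KIF23, recruits the exchange factor ECT2, which loads the small GTPase RhoA with GTP at the equator. RhoA in turn acts on formins, which make actin filaments, and on kinases that activate myosin II, and anillin (ANLN) ties the resulting contractile ring to the membrane. The bridge that remains is the midbody, where CEP55 recruits ALIX and TSG101 and, through them, the ESCRT-III proteins that cut the bridge. Many of these genes are transcribed mainly in G2 and mitosis and are known targets of the DREAM and MMB-FOXM1 complexes, which bind the cell cycle genes homology region (CHR) in promoters. The CCAAT box, bound by NF-Y, is often found near it.

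The promoters of the 8 genes are shown first, because 7 of them hold the letters of a CHR and DIAPH3 does not. A promoter was taken as the 250 bases before and the first 50 bases of the canonical transcript in GENCODE release 44 on GRCh37, the build of hg19, and positions are counted from the start of transcription, with negative numbers before it. Both strands were searched for the CHR, spelled TTTGAA in one form and TTCGAA in the other, and for the CCAAT box with exactly these letters. The E2F motif was searched in the form TTCCCGC, and also in the form TTCGCGC, in the form TTGCCGC and in the form TTGGCGC. The 100 bases before the start are printed below on the gene strand for 3 members with a CHR there and for DIAPH3, with capitals marking CHR and CCAAT letters, including their reverse complements TTCAAA and ATTGG.
ANLN, chr7:36429371-36429470, plus strand: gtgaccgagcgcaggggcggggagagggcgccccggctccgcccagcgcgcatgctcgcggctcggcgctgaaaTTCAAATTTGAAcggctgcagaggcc
PRC1, chr15:91537766-91537865, minus strand: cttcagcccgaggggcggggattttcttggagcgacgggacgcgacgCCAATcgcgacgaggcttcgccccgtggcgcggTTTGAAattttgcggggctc
ARHGAP11A, chr15:32907605-32907704, plus strand: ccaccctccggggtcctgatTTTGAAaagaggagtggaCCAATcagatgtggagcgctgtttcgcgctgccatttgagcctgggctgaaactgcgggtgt
DIAPH3, chr13:60738063-60738162, minus strand: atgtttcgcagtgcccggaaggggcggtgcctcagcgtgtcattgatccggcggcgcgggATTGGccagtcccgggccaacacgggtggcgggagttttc

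For the other 4 members a window of 30 bases around a CHR match is printed, with the match in capitals, to show where it lies against the start.
ECT2, position -115, chr3:172468389-172468418, plus strand: tcgttgggcttaTTTGAAacacacgcacaa
RACGAP1, position 4, chr12:50419257-50419286, minus strand: ttggtgaaggttTTCAAAccggagctgtgg
CIT, position 11, chr12:120315097-120315126, minus strand: ccgttcctcgggTTCAAAcgcggcggcggg
CEP55, position -3, chr10:95256354-95256383, plus strand: gcagccgcgggaTTCAAActcccggaagcg

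CHR letters occurred in 7 of the 8 promoters, against 1170 of 11293 promoters of tested genes (10.4%). In ANLN 2 matches lay back to back, at -26 on the opposite strand and at -20 on the gene strand, and PRC1 had its single match at -20 as well. ECT2, CIT and CEP55 each held 2 matches further apart. CCAAT was found in 7 of 8 promoters, with ANLN the exception, against 36.1% of tested promoters, and 6 of 8 held both a CHR and a CCAAT against 4.4%. E2F letters were in 3 of 8, those of ECT2, CEP55 and ARHGAP11A, against 21.3%. The E2F match of ECT2 overlapped one of its CCAAT matches. A match describes letters in this window and is not evidence of binding, and no binding data were analysed here.

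**Figure D1:**
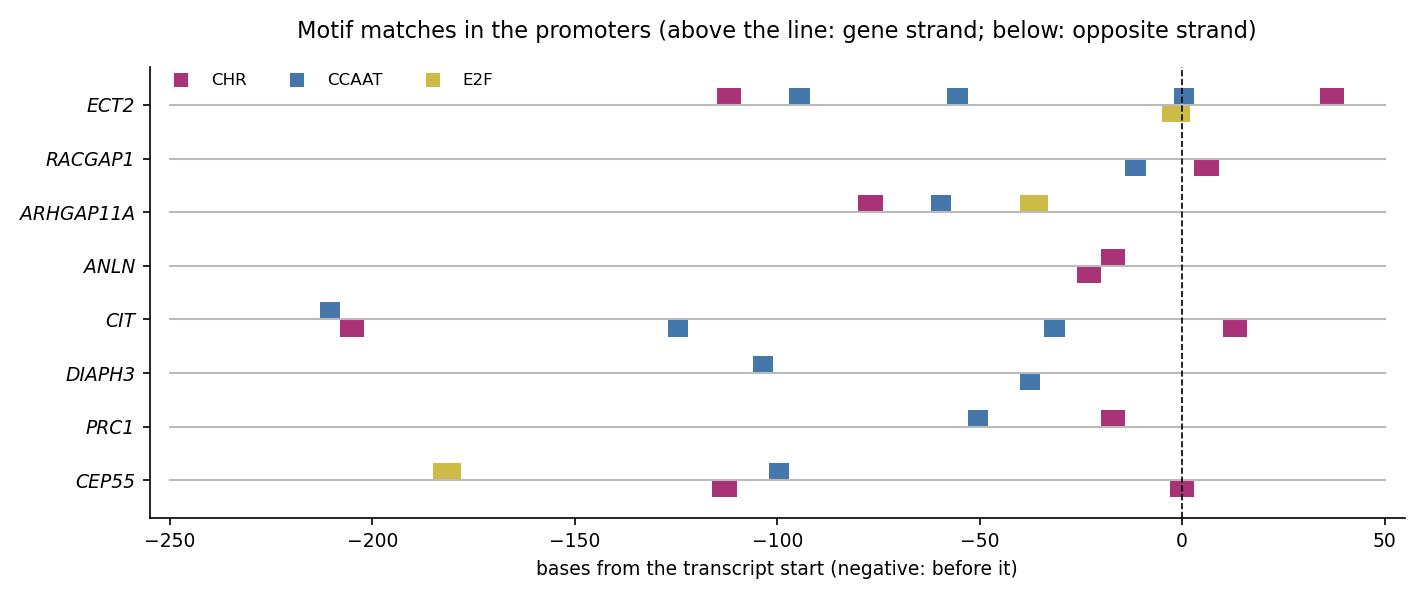
Motif matches in the promoters of the 8 genes, by distance from the start of transcription in bases, with matches on the gene strand above each line and on the opposite strand below it. CHR letters are seen in every promoter but that of DIAPH3, and CCAAT in every one but that of ANLN.

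The libraries held 12795490, 20914151 and 21975045 reads on genes for p21 OFF replicates 1, 2 and 3, and 13440402, 12918390 and 16630552 for p21 ON. These totals were recovered from the normalized counts, of which 100% were whole multiples of 1 read within 0.1 read. Members had between 490 and 5906 reads in a library. The untreated replicate 1 stood further from its group than other replicates did. Its chi-square per gene was 8.5 and 9.26 against the other p21 OFF libraries, where the remaining replicate pairs of either group gave 2.71 to 3.98 and sampling alone gives about 1. Member changes without it are given after the members' own values.

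CDKN1A (chr6:36644237-36655114) matched the labels. Its normalized counts were 1257.1, 1186.6 and 1354.9 in p21 OFF and 40470.4, 43863.2 and 46738.8 in p21 ON, with no overlap. The log2 fold change was 5.11 ± 0.07 (SE, n = 3 per group, limma, adjusted p = 1.12e-19), 34.5-fold higher. RNA from the vector and from the cell's own gene cannot be separated in these counts. Of the osteoblast markers, RUNX2 (3412.3 in p21 OFF and 3403.0 in p21 ON, means of normalized counts), SP7 (5568.4 and 5349.2), ALPL (36026.4 and 37301.8), SPARC (20140.9 and 19612.0) and COL1A1 (7244.9 and 7999.8) were abundant in both groups. IBSP fell from 129.5 to 99.0 (log2 fold change -0.38, limma, adjusted p = 0.0264). COL1A2 and SPP1 had mean counts below 4, and BGLAP was listed at 0 in every library. Among markers of other cell types, PTPRC (5.91 and 7.42), CDH5 (0.679 and 0.388), PECAM1 (12.6 and 13.5) and MYOD1 (8.35 and 13.3) were low, and the epithelial gene EPCAM was present at 330.2 and 313.1. None of the 3 that were tested passed the threshold. RB1 was at 554.7 ± 66.8 and 653.8 ± 39.7 (SD, n = 3), a gene-level count that does not say whether the RNA is full length.

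Of the 8 cytokinesis genes, 8 were lower in p21 ON, with levels of 38.2 to 51.8% of p21 OFF. Among all genes, 1681 of 13255 tested (12.7%) were called lower and 1393 (10.5%) higher at an adjusted p under 0.05. With scaling by library size alone, the split of all genes was 1194 lower and 2033 higher, and the 8 members were lower under it too. The median log2 fold change was -1.16 over the members, from -1.39 to -0.95, and 0.01 over all genes tested. Every p21 ON library lay below every p21 OFF library for 8 of 8 members, as it did for 2826 (21.3%) of the genes tested. A fall of at least 1 on the log2 scale was passed by 6 of 8 members and by 152 (1.15%) of the genes tested. RNA came from whole cultures, so fewer cells in G2 and mitosis and less of each RNA per cell cannot be told apart.

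**Figure D2:**
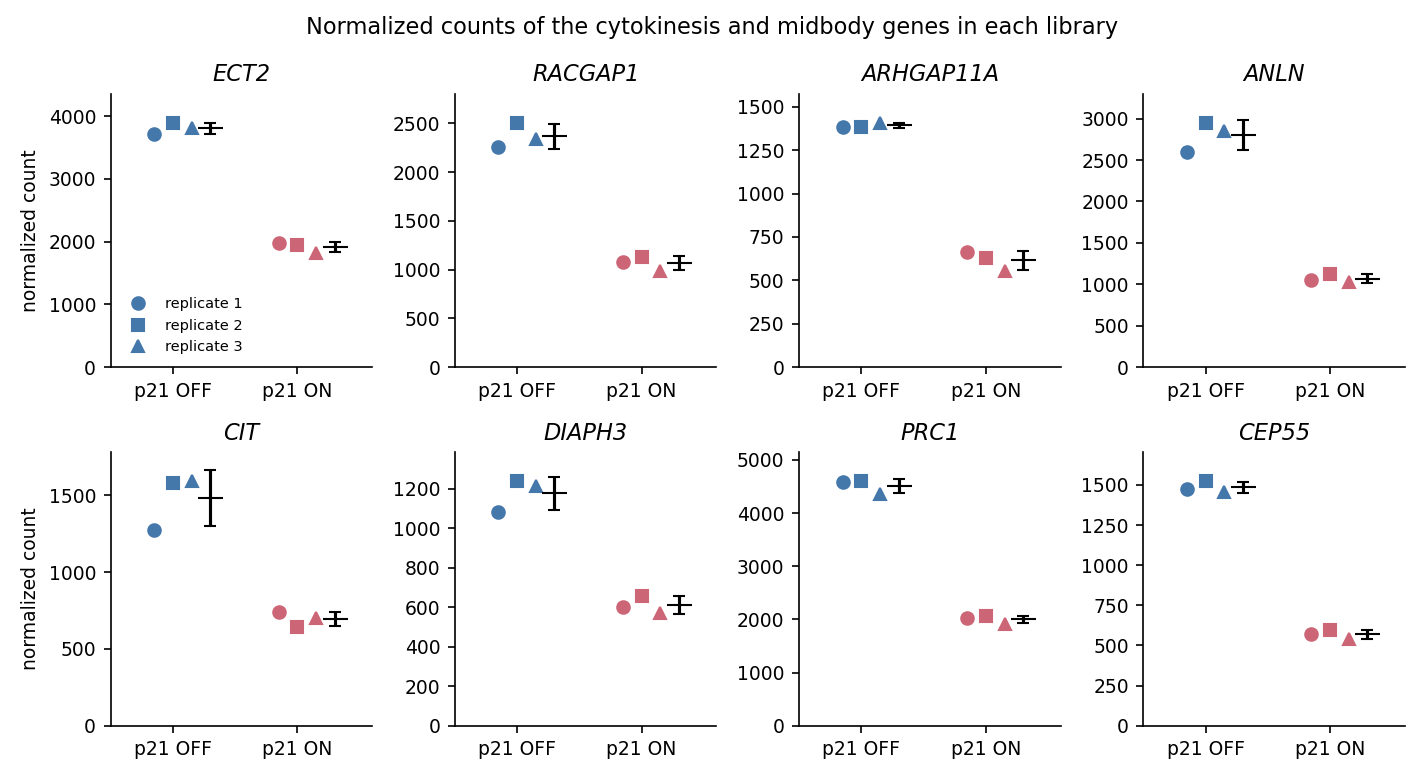
Normalized read counts of the 8 genes in each of the 6 libraries, 1 panel per gene, with points for libraries and horizontal lines for the means of p21 OFF and p21 ON (error bars, SD, n = 3). In all 8 panels the p21 ON libraries sit below the p21 OFF libraries without overlap.

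The regulators of RhoA among the members were all lower. ECT2, the exchange factor that activates RhoA at the equator (chr3:172468472-172539264, plus strand, 25 exons), was at 3721.2, 3894.8 and 3808.9 in p21 OFF and at 1973.2, 1954.4 and 1821.6 in p21 ON. The groups were far apart compared with their spread, 3808.3 ± 86.8 against 1916.4 ± 82.6 (SD, n = 3). Its log2 fold change was -0.99 ± 0.06 (SE, limma, adjusted p = 5.02e-10). RACGAP1, the GTPase-activating subunit of centralspindlin on which ECT2 docks (chr12:50370706-50426919, minus strand, 17 exons), had 2253.1, 2505.1 and 2343.9 in p21 OFF and 1078.0, 1131.9 and 990.2 in p21 ON. The highest p21 ON library was well under the lowest p21 OFF library, with a log2 fold change of -1.15 ± 0.07 (limma, adjusted p = 4.39e-10). ARHGAP11A, a RhoA GTPase-activating protein (chr15:32907345-32932142, plus strand, 12 exons), was nearly level across p21 OFF, at 1385.2, 1385.0 and 1407.4, and more spread in p21 ON, at 663.6, 626.3 and 554.9. It fell by 1.18 ± 0.07 on the log2 scale (limma, adjusted p = 8.24e-10).

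Among the genes of the contractile ring, ANLN (chr7:36429430-36493400, plus strand, 24 exons) changed most. Its counts were 2597.2, 2949.6 and 2850.2 in p21 OFF and 1048.9, 1128.3 and 1032.9 in p21 ON, means of 2799.0 ± 181.7 and 1070.0 ± 51.1 (SD, n = 3). The log2 fold change was -1.39 ± 0.07 (SE, limma, adjusted p = 5.40e-11), the level in p21 ON being 38.2% of that in p21 OFF. CIT encodes citron kinase, a RhoA-binding kinase that helps to keep the midbody in order (chr12:120123596-120315124, minus strand, 48 exons). It was at 1272.2, 1580.2 and 1591.4 in p21 OFF and 738.1, 643.3 and 700.3 in p21 ON. The untreated replicate 1 was lowest of its group, and even so was far above each treated library. CIT fell by 1.09 ± 0.08 (limma, adjusted p = 2.16e-08), and its log2 fold change was -1.19 without that library. DIAPH3 encodes a diaphanous formin that RhoA activates to make actin filaments (chr13:60239717-60738062, minus strand, 28 exons). With 1082.6, 1238.9 and 1214.4 in p21 OFF and 600.7, 659.2 and 571.1 in p21 ON, it showed the smallest change of the 8, -0.95 ± 0.08 (limma, adjusted p = 3.30e-08), with 51.8% of its RNA left.

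PRC1, the microtubule crosslinker of the central spindle (chr15:91509270-91538859, minus strand, 15 exons), was the most abundant member in p21 OFF. Its counts were 4589.0, 4598.6 and 4365.5 in p21 OFF and 2021.0, 2059.2 and 1916.6 in p21 ON. The 2 groups were tight and did not overlap, and the log2 fold change was -1.18 ± 0.06 (SE, limma, adjusted p = 6.97e-11). CEP55, which opens abscission at the midbody (chr10:95256369-95288849, plus strand, 9 exons), went from 1473.2, 1522.4 and 1456.9 to 570.4, 598.3 and 540.7. That is 38.4% of the untreated level and a log2 fold change of -1.38 ± 0.07 (limma, adjusted p = 5.57e-11), next to that of ANLN.

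**Figure D3:**
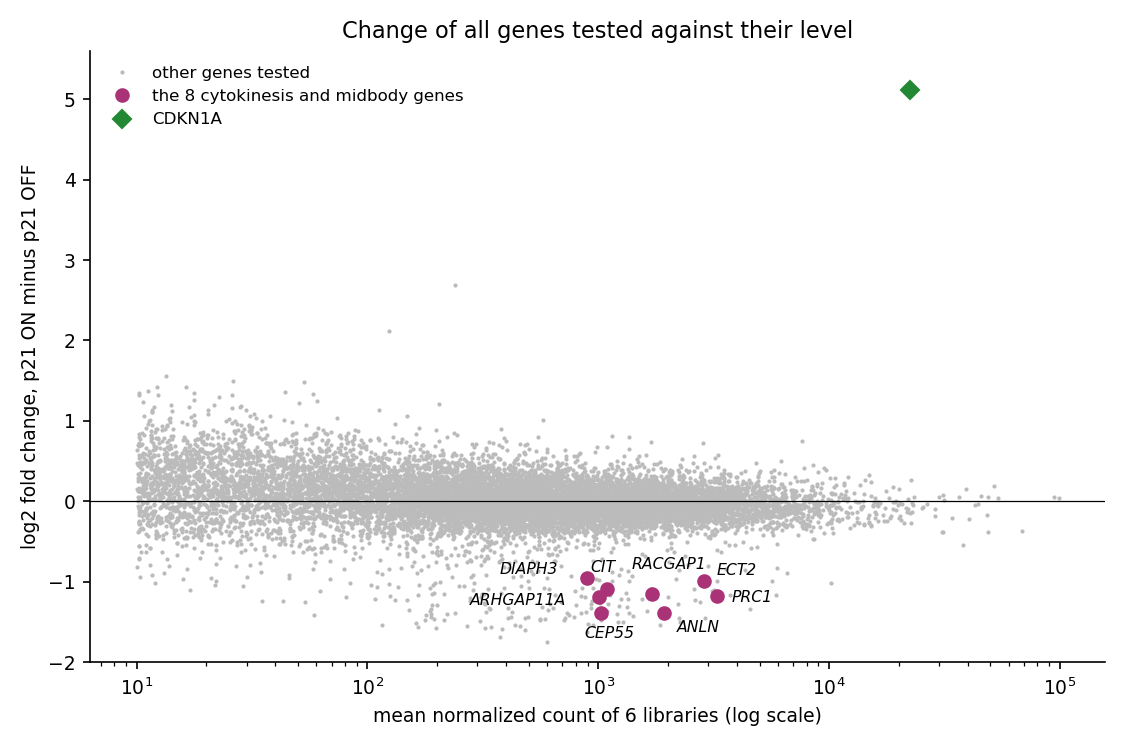
Log2 fold change (p21 ON minus p21 OFF) of the 13255 genes tested against their mean normalized count over the 6 libraries (log axis), with the 8 members and CDKN1A marked. The members lie between -1.39 and -0.95, below the band of most genes of the same abundance.

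Ranked by log2 fold change over all genes tested, from the most negative, ANLN was at place 49, CEP55 at 51, ARHGAP11A at 100, PRC1 at 103, RACGAP1 at 115, CIT at 128, ECT2 at 156 and DIAPH3 at 168. Most neighbours in this order were closer than their standard errors. The log2 ratio of ANLN to CEP55 was 0.91 ± 0.08 in p21 OFF and 0.91 ± 0.03 in p21 ON (SD, n = 3). That of ECT2 to DIAPH3 was 1.69 ± 0.08 and 1.65 ± 0.08, and both ratios overlapped between the groups. PRC1 to RACGAP1 moved by -0.03 and ARHGAP11A to PRC1 by -0.01. Of the 28 pairs of members, 17 had log2 ratios that did not overlap between the groups, among them PRC1 to ECT2 (-0.19) and RACGAP1 to ECT2 (-0.16). Over all pairs of genes tested, 39.5% did not overlap. The log2 ratio of ANLN to DIAPH3 was 1.26, 1.25 and 1.23 in p21 OFF and 0.80, 0.77 and 0.85 in p21 ON, a difference of -0.44. It was the largest of these pairs, and CEP55 to DIAPH3 followed with -0.43. With 3 libraries against 3, the exact two-sided permutation test cannot go below p = 0.1, which these 17 pairs reached, and their adjusted p over the 28 pairs was 0.165, so none passed.

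The mean log2 level of the 8 was 10.98, 11.10 and 11.06 in p21 OFF replicates 1, 2 and 3, and 9.92, 9.93 and 9.81 in p21 ON. Untreated replicate 1 held the lowest value of its group for 5 of 8 members and for 38.2% of all genes tested, and treated replicate 3 for 7 of 8 members and for 35.2%. These gaps within groups were small beside the gap between groups. The coefficient of variation among replicates was 0.923 to 12.2%, and counting alone would give 2.43 to 4.52% in the library where a member had fewest reads. Without untreated replicate 1, the 8 members were still called lower, with a median log2 fold change of -1.19. The values were -1.44 for ANLN, -1.39 for CEP55, -1.19 for RACGAP1, CIT and ARHGAP11A, -1.16 for PRC1 and -1.01 for DIAPH3 and ECT2. Over each library left out in turn, the median ran from -1.20 to -1.10.

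Levels of different genes can be compared only per length. Per kilobase of the canonical transcript, the normalized count in p21 OFF was 1470.6 for PRC1, 920.8 for ECT2, 762.2 for RACGAP1, 591.6 for ANLN, 558.4 for CEP55, 248.4 for DIAPH3, 237.0 for ARHGAP11A and 169.6 for CIT. ANLN and CEP55 overlapped in this order, as did DIAPH3 and ARHGAP11A, while the other neighbours were separate. In p21 ON the order was unchanged, from 650.7 for PRC1 to 79.4 for CIT. CIT has several transcripts of very different length, so its level per length depends on the transcript taken.

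Reads of PRC1 and ARHGAP11A may be shared with other genes. In windows of 51 bases, the length of the reads, 85.4% of the PRC1 transcript's windows also occur in a readthrough gene on the same strand (ENSG00000284946), and 28.8% lie in sequence that the antisense gene PRC1-AS1 also covers. For ARHGAP11A, 40.1% of windows also occur in other genes, 32.5% in the readthrough gene ARHGAP11A-SCG5 and 16.8% in the duplicated gene ARHGAP11B. ENSG00000284906 shares 15.4% of the windows, and the antisense gene ENSG00000285948 shares 13.5%. The readthrough genes and the antisense genes PRC1-AS1 and ENSG00000285948 overlap these members on the genome. None of them has a row under its name among the normalized counts. The libraries were stranded, but the strand setting of the counting is not given in the sources used here, so reads of an antisense partner cannot be told apart. Sharing was 0.6% for ANLN (with MATCAP2), 0.7% for RACGAP1 (with the pseudogene RACGAP1P1), 0.4% for CIT and 1.1% for DIAPH3 (with DIAPH3-AS1), and there was none for ECT2 and CEP55. AQP6 overlaps RACGAP1 by 137 exonic bases on the opposite strand. The microRNA gene MIR1178 lies on the same strand as CIT and shares 91 exonic bases with it. Only windows of the canonical transcripts were compared, and the other transcripts of CIT hold many more exonic bases.

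The partners of the members in the central spindle were lower too. All 12 listed genes of the central spindle and midzone were called lower, against 12.7% of all genes, and their changes ran from -1.74 to -0.84 on the log2 scale (median -1.42). KIF23, the kinesin of centralspindlin, went from 1587.4, 1559.2 and 1527.1 to 661.2, 679.9 and 585.4 (log2 fold change -1.28, limma, adjusted p = 1.92e-10). AURKB, the kinase of the chromosomal passenger complex, fell most in this list, from 925.8 ± 71.8 to 276.3 ± 23.1 (SD, n = 3), a log2 fold change of -1.74. Its partners BIRC5 (-1.45) and CDCA8 (-1.54) fell with it. The polo kinase PLK1, which primes RACGAP1 to bind ECT2, fell from 3273.5 to 1204.1 (-1.44), and the midzone kinesins KIF20A, from 2073.1 to 770.4 (-1.43), and KIF4A, the motor partner of PRC1 (-1.41), did likewise. SHCBP1, a binding partner of RACGAP1, changed by -1.45. These 12 genes were listed with earlier results of these data known, as all the lists here were, so their direction is not independent evidence.

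Calls were mixed among the structural and regulatory genes of the ring. Of the 22 genes listed, 17 were found and 16 were tested, and 7 were lower (43.8%, against 12.7% of all genes), 1 was higher (6.25%, against 10.5%) and 8 did not pass, with a median of -0.17. The actins ACTB, from 77295.1 to 59696.4 (log2 fold change -0.37, limma, adjusted p = 0.000705), and ACTG1 (-0.38, adjusted p = 0.000504) had the largest falls. The actin-binding proteins CFL1 and PFN1 each fell by 0.27. The myosin light chains MYL12B (-0.23, limma, adjusted p = 0.0231) and MYL9 (-0.21, adjusted p = 0.0438) were also called lower. So was the GTPase RHOC (-0.18, adjusted p = 0.0476). MYL9 and RHOC were near the threshold, and the libraries of MYL9 overlapped between the groups. MYH10, a heavy chain of non-muscle myosin II, rose from 3024.4 ± 202.4 to 3703.2 ± 22.9 (0.29, adjusted p = 0.00248). MYH9, the more abundant heavy chain, was at 30238.2 and 32080.5 and did not pass (adjusted p = 0.334). RHOA itself was at 8631.5 ± 639.8 and 7654.8 ± 655.7, with overlapping libraries (-0.17, adjusted p = 0.0823). The count of 7 lower genes was 4 with scaling by library size (25.0%, against 8.98% of all genes under it) and 2 without treated replicate 1 (12.5%, against 6.72%). With no filter on low values it was 0 (against 2.17% of all genes). Septins were not analysed here, since the table names 26 rows by dates in place of symbols.

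**Figure D4:**
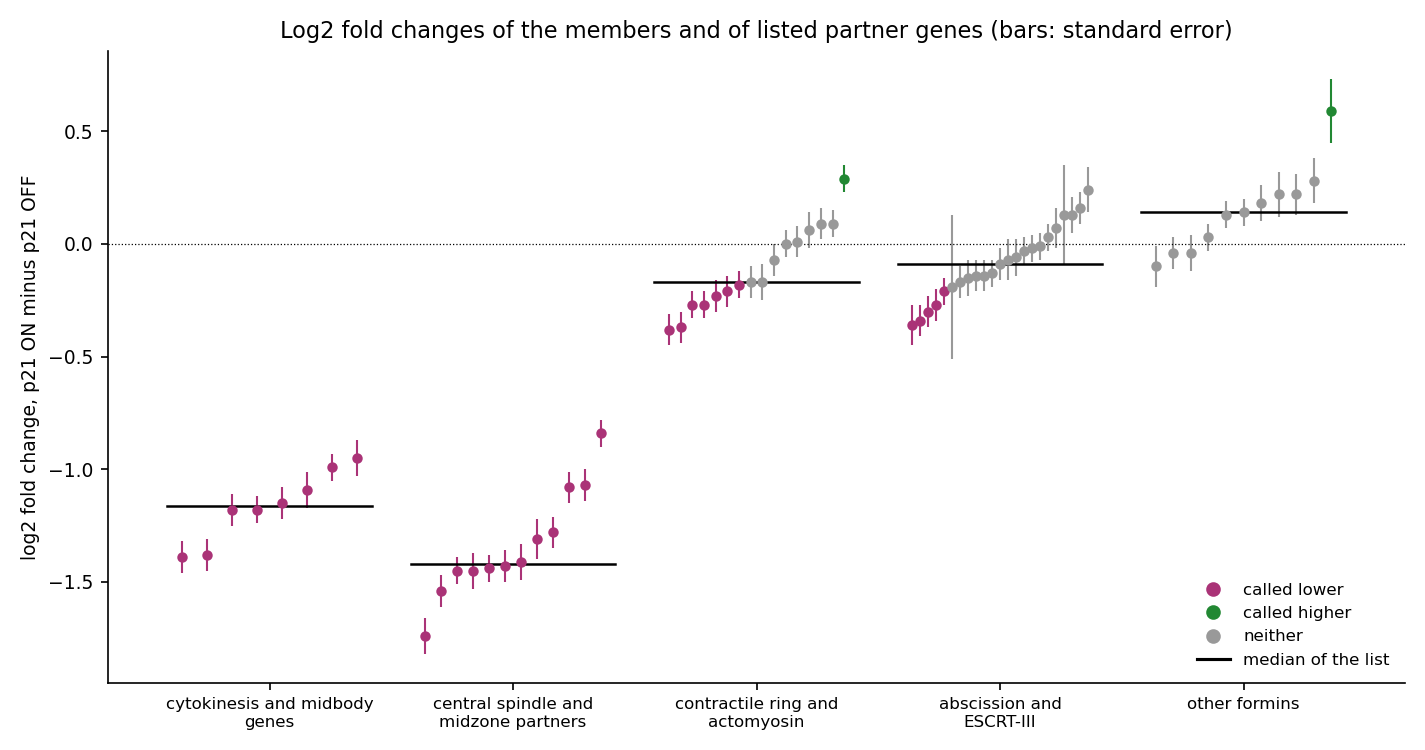
Log2 fold changes of the members and of the listed partner genes, 1 point per gene with its standard error, grouped by list, with a line at each median. Members (median -1.16) and central spindle partners (-1.42) have lower medians than ring (-0.17), ESCRT (-0.09) and formin (0.14) genes.

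Most of the listed abscission genes did not pass the threshold. In the list of 23, 5 were lower (21.7%, against 12.7% of all genes), 0 higher (against 10.5%) and 18 did not pass, with a median of -0.09. The lower ones were the ESCRT-III genes CHMP5 (-0.36), CHMP6 (-0.30), CHMP1B (-0.27) and CHMP4B (-0.21) and the midbody and centriole gene CNTRL (-0.34). PDCD6IP, which encodes ALIX, was at 2967.7, 3026.9 and 2955.9 in p21 OFF and 3088.5, 2990.1 and 3076.9 in p21 ON (0.03, limma, adjusted p = 0.707). TSG101 was at 954.6 ± 39.8 and 847.8 ± 53.2 (SD, n = 3, -0.17, adjusted p = 0.0839). The count of 5 was 3 without treated replicate 3 (13.0%, against 8.13% of all genes). It was also 3 with no filter on low values (13.0%, against 2.17% of all genes).

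Of the other formins, 11 were tested, and 0 passed as lower (against 12.7% of all genes) and 1 as higher (9.09%, against 10.5%), with a median of 0.14. The one called was DAAM2, a formin of Wnt signalling, which rose from 227.3 ± 54.6 to 336.9 ± 28.7 (log2 fold change 0.59, limma, adjusted p = 0.00518). DIAPH1 was at 3534.5 ± 269.0 and 3864.5 ± 52.0 (0.13, adjusted p = 0.14), DIAPH2 at 210.6 and 244.5 (0.22, adjusted p = 0.118), and INF2, with the highest normalized count of those not called, at 4411.1 and 4859.0. FMN2 was listed at 0 in every library. Scaling by library size gave 6 formins called higher (54.5%, against 15.3% of all genes under that scaling). Leaving out untreated replicate 2 gave 3 (27.3%, against 9.29%), and leaving out untreated replicate 3 gave 4 (36.4%, against 11.2%). With no filter on low values 0 were called higher (against 1.09%), so the call of DAAM2 was lost.

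Ratios within a library compare a member with its partner or paralog independently of the scaling. CEP55 to PDCD6IP, the log2 ratio of a recruiter to its cargo, was -1.01, -0.99 and -1.02 in p21 OFF and -2.43, -2.32 and -2.51 in p21 ON, a difference of -1.41. CEP55 to TSG101 differed by -1.21. ANLN lost ground against RHOA (-1.21) and against MYH9 (-1.47), and CIT against the related kinases ROCK1 (-1.10) and ROCK2 (-1.15). For the diaphanous family, DIAPH3 to DIAPH1 was -1.58 ± 0.01 in p21 OFF and -2.66 ± 0.10 in p21 ON (SD, n = 3), and DIAPH3 to DIAPH2 went from 2.48 to 1.31.

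Ratios between members and central spindle genes moved less. RACGAP1 to KIF23, the subunits of centralspindlin, was 0.50, 0.68 and 0.62 in p21 OFF and 0.70, 0.73 and 0.76 in p21 ON, a difference of 0.13 that was 0.08 without untreated replicate 1. ECT2 to RACGAP1 rose by 0.16 and PRC1 to KIF4A by 0.23. Only ARHGAP11A to ARHGAP11B overlapped between the groups among the 12 ratios, with a difference of -0.40 (exact permutation p = 0.2) that was -0.22 without treated replicate 3 and -0.54 without treated replicate 2. ARHGAP11B, the copy of ARHGAP11A, was itself lower (log2 fold change -0.79, limma, adjusted p = 0.016). The other 11 had no overlap, where 39.5% of all pairs of tested genes had none. In ratios to genes that changed little, such as PDCD6IP and MYH9, this separation restates the member's own fall. These 11 gave the smallest exact two-sided permutation p that 3 against 3 allows, 0.1 (adjusted p = 0.109 over 12). None passed a threshold of 0.05.

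**Figure D5:**
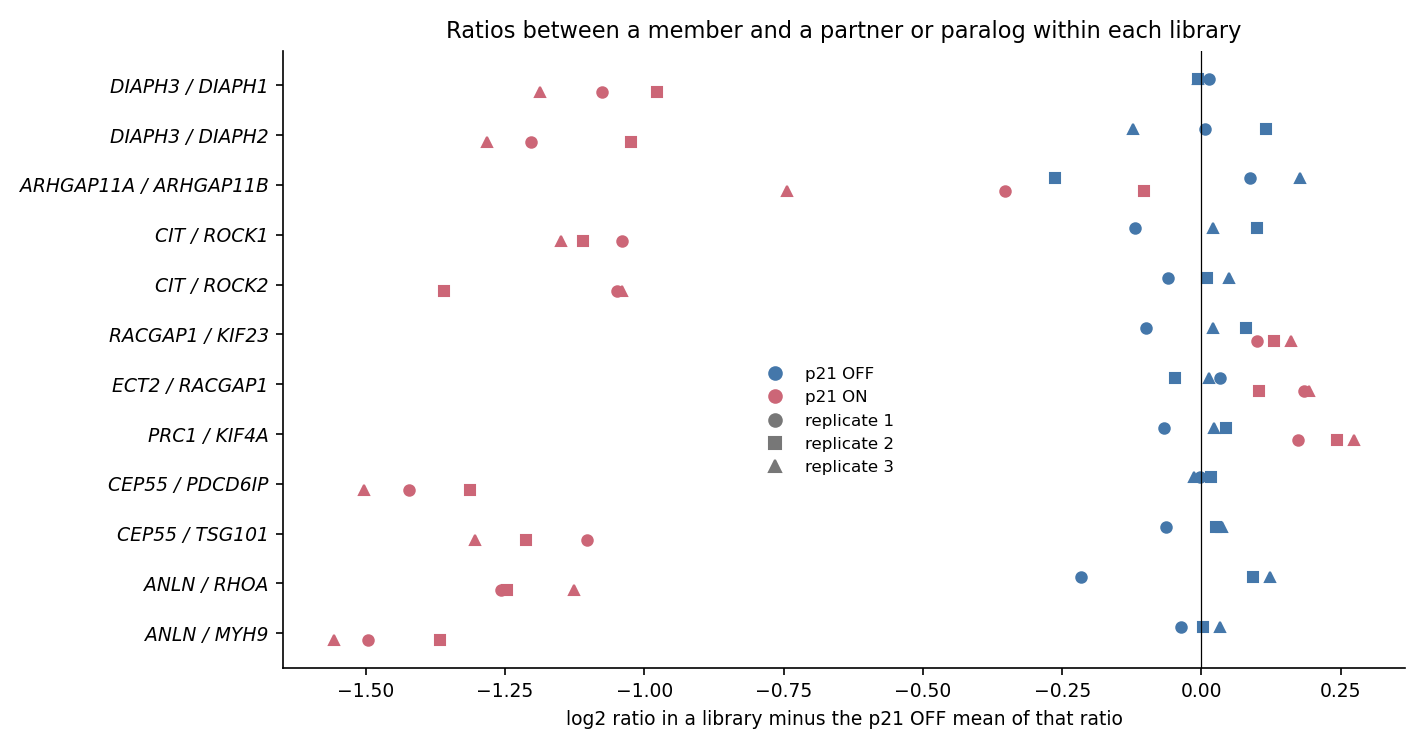
Log2 ratio of a member to a partner or paralog in each library, with the p21 OFF mean of that ratio subtracted, for 12 pairs. Ratios to DIAPH1, DIAPH2, ROCK1, ROCK2, PDCD6IP, TSG101, RHOA and MYH9 sit near or below -1 in p21 ON, and ratios to KIF23, RACGAP1 and KIF4A lie between 0 and 0.3.

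Outside these lists, the genes whose 6-library profile was nearest to the mean profile of the members were PRR11, XRCC2, RRM2, KIF11 and CENPN. Likeness was the root mean square difference of centred log2 values over the 6 libraries, 0.0358 for PRR11 and 0.0503 for CENPN. PRR11 went from 5146.7 ± 347.6 to 2302.3 ± 49.5 (SD, n = 3) and KIF11, the kinesin that keeps spindle poles apart, from 1544.2 ± 48.6 to 725.6 ± 26.1. RRM2, a subunit of ribonucleotide reductase, went from 4232.1 ± 19.4 to 1964.0 ± 112.6. The same measure was 0.029 for RACGAP1, the member closest to the mean of the 8, and 0.117 for ANLN, the farthest. That mean includes each member's own values, so member distances are not directly comparable with those of the outside genes.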

How the data were processed

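Total RNA of SaOS-2 cells was made into TruSeq stranded mRNA libraries and sequenced in one lane with 51-base single-end reads by the authors, who used STAR for mapping to hg19, HTSeq for counting by gene name and DESeq2 for normalization. The deposited values are these normalized counts, a signal of 0 or above per gene and library. Their tool versions, and whether counting used strand, are not given in the sources used here. The value columns not assigned to a sample numbered 0. The authors' RNA sequencing methods speak of biological replicates, but nothing in the labels says that these came from separate cultures. The p-values therefore measure the spread between these libraries. The step between values returned whole reads in 100% of values (tolerance 0.1 read), with size factors of 0.796 to 1.35. On those reads the count test, edgeR 4.0.16 quasi-likelihood, called 1401 genes higher and 1647 lower.

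Log2(normalized count + 1) of 13255 genes (mean normalized count 10 or more) was fitted with limma 3.58.1 (lmFit, eBayes with trend, R 4.3.3) over the 6 libraries without covariates, with Benjamini-Hochberg adjustment over all genes tested and a threshold of 0.05. Fold changes on this scale are slightly understated for low genes. Ratios were tested by exact two-sided permutation. The fit was tested on simulated data with the same dispersion for every gene and no deviating library. These data differ from that setting, since untreated replicate 1 stood apart, and no conclusion is drawn from that test. Alternatives were library size and TMM scaling, pseudocounts of 0.1 and 10, no filter, at least 10 reads in every library, edgeR, DESeq2 1.42.0, limma-voom, an adjusted p under 0.01, an absolute log2 fold change of at least 1, a block for the replicate number, and leaving out each library in turn.

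The members and lists were chosen with earlier results of these data known. Genes named are the 8 members, CDKN1A, genes in a ratio, in each list up to 8 genes past the threshold by adjusted p and the one with the highest normalized count not past it, genes overlapping a member or nearly identical to it, the 5 nearest profiles, and the markers. Annotation is GENCODE 44 lifted to GRCh37, to which 18908 rows matched, 17442 of them with a promoter. Counting errors treat reads as independent molecules. Some results that had been planned are not reported here.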

Additional observations from a re-analysis of the deposited data

How the results depend on the processing

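The 8 members kept their direction under all alternatives run, and 8 were called under each except a log2 fold change of at least 1, where 6 were, DIAPH3 (-0.95) and ECT2 (-0.99) falling short. Their log2 fold changes ran from -1.44 to -0.90 and their median from -1.20 to -1.10. CDKN1A gave 5.06 to 5.16 with each library left out. The counts of called genes moved more, and the cause was not tested. For all genes tested, higher and lower calls were 616 and 882 at an adjusted p under 0.01, 48 and 152 at a log2 fold change of at least 1, and 254 and 503 with no filter on low values. With each library left out they ran from 692 to 1488 and from 888 to 1662, the lowest being 692 and 888 without p21 ON replicate 1, and 739 and 1076 without p21 ON replicate 3.

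In the ring list, lower calls were 4 at an adjusted p under 0.01, 0 at a log2 fold change of at least 1, 4 with library size scaling, 0 with no filter and 2 to 7 with a library left out, and higher calls were 0 at a log2 fold change of at least 1. In the abscission list, lower calls were 3 at an adjusted p under 0.01, 0 at a log2 fold change of at least 1, 3 with no filter and 3 to 5 with a library left out, and higher calls were 1 with library size scaling and 0 to 1 with a library left out. Among other formins, higher calls were 0 at a log2 fold change of at least 1, 6 with library size scaling, 0 with no filter and 1 to 4 with a library left out. Library size scaling put the median of all genes at 0.05.

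No pairing by replicate number was seen in the values. Deviations of libraries with the same number correlated at -0.057, -0.025 and -0.048, and those with different numbers at -0.005 to 0.054. With 3 libraries in a group, such correlations cannot tell whether samples with the same number were handled together. With the replicate block, 1407 genes were higher and 1513 lower, 8 members were lower with a median of -1.16, and 2 formins were higher. The design of 3 against 3 limits the exact permutation test of a ratio to p = 0.1, and counting error limits low genes such as ARHGAP11B most.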
